A study of Mus musculus with 4 samples.

Results

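The T cell receptor segments of large intestinal (LI) Treg cells were followed gene by gene: the variable (V) segments of the alpha, beta, gamma and delta chains, and the constant segments that end each chain. They were chosen by name alone. A member was any gene called Trav, Trbv, Trgv or Trdv and a number, any of Trac, Trbc1, Trbc2 and Trdc, or any gene whose name starts with Trgc or Tcrg. This gave 184 of the 53379 genes in the table: 128 Trav, 35 Trbv, 6 Trdv and 7 gamma-chain V segments, and 8 constant segments. The RNA-seq compared control mice (Foxp3Cre-YFP Setd2 f/+) with KO mice (Foxp3Cre-YFP Setd2 f/f), all of strain C57BL/6. Both genotypes carry the Cre, which the Foxp3 gene drives and which therefore acts in cells that express Foxp3, and the control keeps 1 unfloxed copy of Setd2, the histone methyltransferase that places H3K36me3. Cells were sorted as CD3+CD4+YFP+ from the large intestine at steady state, and each of the 2 libraries per group held cells pooled from 2 to 3 littermate mice. The age of the mice is not in the labels.

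A T cell builds its receptor by cutting and joining DNA. At the alpha locus a V segment is joined to a joining (J) segment, and at the beta and delta loci a diversity (D) segment lies between them. The joined piece is then spliced to the constant segment. An alpha beta T cell as a rule expresses a single beta chain and 1 or 2 alpha chains, so in a pool of cells the RNA of each V segment follows how many cells chose it and how much receptor RNA those cells made. In bulk RNA fewer cells with a segment and less RNA per cell cannot be told apart. The receptor reaches the surface only with the CD3 proteins.

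Levels are given as the deposited FPKM, in the order control 1, control 2, KO 1 and KO 2 unless stated otherwise. FPKM is by definition the fragments of a transcript scaled to its length and to a total of 1000000 fragments. At the 5000 highest ranks the deposited columns hold nearly the same values, from a step the methods do not name. All sums, shares and ratios rest on the values after that step. Each log2 fold change sets KO against control in log2(FPKM + 1), positive where KO was higher, with its standard error (SE), from a limma fit across all genes whose mean FPKM was above 5 in either group. That left 8489 genes and 110 of the 184 members: 83 Trav, 22 Trbv, Trdv1 and 4 constant segments. Of the 74 others, 34 were listed at 0 in all 4 libraries and 40 lay above 0 but under the filter. A gene is called changed at an unadjusted p below 0.05, the threshold the study used, and the Benjamini-Hochberg adjusted p over all 8489 genes stands beside it.

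The labelled cell type was checked first. Of 5 Treg markers, 4 passed the filter, and 2 of these moved with the groups in opposite directions. Ctla4 was higher in KO, at 1593 and 1701 FPKM in control and 2160 and 2310 in KO (log2 fold change 0.44, SE 0.10, limma unadjusted p = 0.00419, adjusted p = 0.174). Ikzf2 was lower, at 120.8 and 115.6 against 84.1 and 98.4 (-0.37, SE 0.12, unadjusted p = 0.0256, adjusted p = 0.292). The unadjusted limma p of Ikzf2 was 0.0933 without control replicate 1, 0.0571 without control replicate 2 and 0.138 without KO replicate 1. Il2ra was at 183.7, 180.4, 152.1 and 162.8 FPKM without passing (unadjusted p = 0.0941, adjusted p = 0.434), and Tnfrsf18 lay between 1899 and 2218 with overlapping groups. The part of these differences in the receptor values was not tested. Foxp3, the defining gene, was listed at only 2.62 to 5.61 FPKM, under the filter. Setd2 itself was at 38.2, 27.4, 26.3 and 36.3 FPKM, with overlapping groups. The sources used here do not say which part of the floxed gene is lost, so the gene level checks little. By western blot the paper reported a strong drop of H3K36me3 in spleen and intestinal Treg cells of KO mice. RNA of other cells was present: Igkc at 753 to 1171, Jchain at 112.0 to 168.6 and Lyz2 at 127.8 to 168.0 FPKM, in overlapping ranges. Epcam, an epithelial gene, was lower in KO at 19.6 and 21.1 against 28.7 and 30.8 FPKM, while Krt8 and Krt20 stayed at 0.11 or less, and the part of such RNA in the receptor values was not tested.

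The sequences at the 3′ end of the V segments show the joining edge. Most V segments end in a short run of letters around TGTGC, whose TGT is the codon of the conserved cysteine at the start of the third complementarity-determining region, the loop that touches antigen. The last 30 bases of the transcript are printed for the 6 Trbv segments of highest level and for 4 Trbv segments that differed between the groups, 5′ to 3′ on the strand of the gene, from GENCODE M21 transcripts on GRCm38, with the last TGTGC of the window in capitals.
Trbv15: agctgtgtatctgTGTGCcagcagtttagc
Trbv3: gtgtacttcTGTGCcagcagcttagccaca
Trbv17: tgccatgtacctcTGTGCtagcagtagaga
Trbv13-2: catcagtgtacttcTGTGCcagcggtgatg
Trbv12-2: tctgccgtgtacttcTGTGCcagctctctc
Trbv31: ctctggcttctacctcTGTGCctggagtct
Trbv30: cagcagtatctatttctgtagttctagaga
Trbv24: agcactgtagctcTGTGCcagcagtctgta
Trbv4: tgctgtgtatctcTGTGCcagcagctaaga
Trbv5: agctgtctattttTGTGCcagcagccaaga

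All lie on chromosome 6 in the final exon of their gene, which is annotated as coding sequence there except in the pseudogene Trbv24. On the plus strand they are Trbv3 at chr6:41048799-41048828, Trbv4 at chr6:41059857-41059886, Trbv5 at chr6:41062774-41062803, Trbv12-2 at chr6:41119335-41119364 and Trbv13-2 at chr6:41121803-41121832. Further along are Trbv15 at chr6:41141629-41141658, Trbv17 at chr6:41163527-41163556, Trbv24 at chr6:41218528-41218557 and Trbv30 at chr6:41281961-41281990. Trbv31 lies apart on the minus strand at chr6:41557693-41557722. TGTGC was found in this window in 114 of 142 V segments annotated as genes (80.3%) and in 21 of 34 annotated as pseudogenes (61.8%), or 135 of all 176 (76.7%), and its reverse complement in 0. Trbv30 has no match in these letters. Trbv24, a pseudogene in the annotation, has a TAG triplet in the frame of its TGT, 2 triplets before it, and TAG is a stop codon.

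The alpha and beta constant segments were high, as the most abundant members. Trac, the constant segment of the alpha chain (chr14), was at 893.9, 837.6, 886.8 and 950.4 FPKM, and its groups overlapped (log2 fold change 0.09, SE 0.10, unadjusted p = 0.422, adjusted p = 0.739). Trbc2, the second beta constant segment, was at 827.4, 904.8, 1025 and 843.7 FPKM, and its groups overlapped too (0.10, SE 0.13, unadjusted p = 0.449, adjusted p = 0.760). For Trbc1, the first, the values were 473.7, 510.1, 648.9 and 551.1 FPKM. Both KO libraries lay above both control libraries, and the difference did not pass the test (0.28, SE 0.12, unadjusted p = 0.0591, adjusted p = 0.370 by limma).

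Trbc1 and Trbc2 each lie behind their own D and J segments, and a rearranged beta chain uses only 1 of them. The ratio of Trbc1 to Trbc2 was 0.573, 0.564, 0.633 and 0.653. The KO ratios were above the control ratios, with a difference of 0.18 in log2 of the ratio and an exact two-sided permutation p of 0.333, the smallest that 2 against 2 libraries can give. The 2 genes are alike in sequence, with 83.9% of aligned transcript bases the same, and how reads that match both were divided was not tested.

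Gamma and delta constant segments were low. Tcrg-C1, the constant segment used with several gamma V segments, was the only constant segment called. It was at 6.84, 6.79, 10.96 and 12.24 FPKM, and the groups did not overlap. Its log2 fold change was 0.69 (SE 0.18, unadjusted p = 0.00907, adjusted p = 0.221). Tcrg-C2 was at 0.37, 0.45, 1.60 and 1.07 FPKM and Tcrg-C4 at 0.77, 0.15, 0.61 and 1.71, both under the filter and so not tested, and Tcrg-C3 was listed at 0 throughout.

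Other genes of gamma delta T cells were near 0 in the same libraries. Trdc, the only delta constant segment, was at 1.10, 0.20, 0.24 and 0.67 FPKM. Sox13, a transcription factor of a gamma delta lineage, was at 0.12 or less, and Cd163l1, a surface receptor of such cells, was at 0.13, 0.01, 0.42 and 0.72. The sum of the 6 fixed gamma delta markers ran from 7.60 to 9.21 FPKM in control and from 13.95 to 16.46 in KO, and Tcrg-C1 made up most of it. Of the 7 gamma-chain V segments, 4 were listed at 0 in every library. The 2 highest were Tcrg-V6, at most 3.11 FPKM in any library, and Tcrg-V5, at 1.37 in KO 2 and 0 elsewhere.

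The 6 Trdv segments, which serve the delta chain, reached the filter in Trdv1 only. It was at 9.79, 4.95, 10.09 and 9.77 FPKM, where control 2 stood below the other 3 libraries, and it was not called (log2 fold change 0.45, SE 0.31, unadjusted p = 0.203, adjusted p = 0.556). Trdv4 was at 4.68 and 4.77 FPKM in control and 2.02 and 1.70 in KO. The summed Trdv level was 21.25, 13.32, 14.15 and 13.05 FPKM, with overlapping groups.

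**Figure D1:**
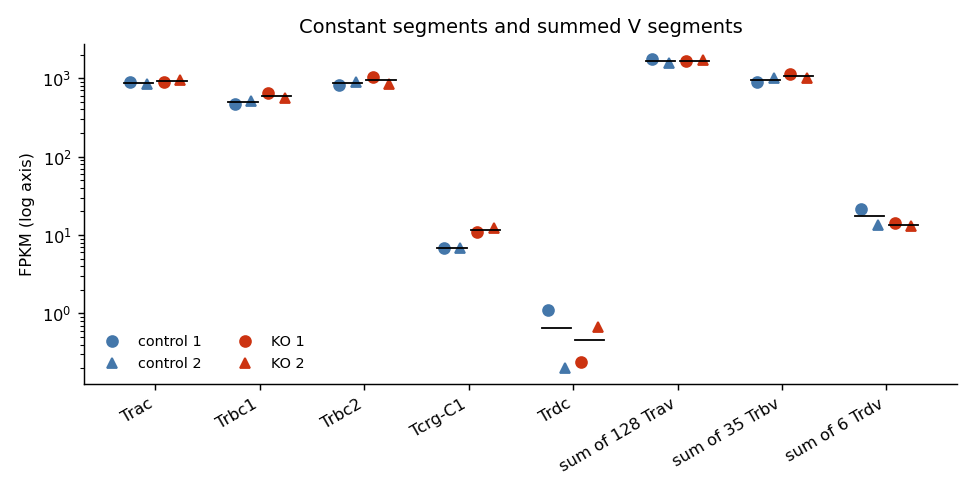
FPKM (log axis) of 5 constant segments and of the summed Trav, Trbv and Trdv segments in each library, with control in blue, KO in red and a bar at the mean of each group of 2. Tcrg-C1 lies at 6.84 and 6.79 in control and 10.96 and 12.24 in KO, while Trac and the Trav sum overlap between the groups.

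Summed over all segments, the alpha V level overlapped between the groups and the beta V level did not. The 128 Trav segments summed to 1733, 1561, 1640 and 1682 FPKM, which is 1647 ± 122 (SD, n = 2) in control and 1661 ± 29.3 (SD, n = 2) in KO. The difference in log2 of the sum was 0.01 (exact permutation p = 1). The 35 Trbv segments summed to 898.2, 1000.3, 1144 and 1012 FPKM, or 949.2 ± 72.2 (SD, n = 2) in control and 1078 ± 93.8 (SD, n = 2) in KO. Here both KO libraries lay above both controls, though KO 2 by a small margin, and the difference was 0.18 in log2 of the sum (exact permutation p = 0.333, the smallest possible). Set against the constant segments the beta V level overlapped: the Trbv sum over the Trbc sum was 0.690, 0.707, 0.683 and 0.725, with overlapping groups.

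Usage was spread over many segments in both groups. The effective number of segments is the exponential of the Shannon entropy of the shares, and equals the number of segments that would give the same spread if all were used alike. For Trav it was 65.6, 66.5, 65.0 and 67.2 (66.1 ± 0.62 in control and 66.1 ± 1.57 in KO, SD, n = 2; exact permutation p = 1). This counts Trav segments of identical sequence under each of their names. With these summed it was 54.0, 56.8, 56.0 and 55.4 (55.4 ± 1.95 in control and 55.7 ± 0.42 in KO, SD, n = 2). For Trbv it was 18.0, 18.3, 18.1 and 18.6 (18.1 ± 0.22 and 18.3 ± 0.35, SD, n = 2; exact permutation p = 0.667). With 2 libraries a group no difference in these numbers could have passed 0.05.

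Of the 110 members tested, 12 were called higher and 3 lower in KO at an unadjusted p below 0.05, which is 13.6% of members. Over all 8489 genes tested, 14.3% were called, 7.76% higher and 6.55% lower, so the share of receptor segments called was near the background. None of the members passed an adjusted p below 0.05 in limma, where 15 passed unadjusted and 0.153% of all genes tested passed, and the smallest adjusted p was 0.203. Groups that did not overlap were found for 36 members (32.7%), against 46.2% of all genes tested: 22 lay higher in KO (23.7% of all genes tested did) and 14 lower (22.4%). The median log2 fold change was 0.03 over members and 0.00 over all genes tested.

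The calls fell unevenly on the chains. Trbv had 5 higher and 1 lower of 22 tested (27.3%, against 14.3% of all genes tested), and a median log2 fold change of 0.13. Trav had 6 higher and 2 lower of 83 (9.64%), and a median of -0.01. The 6 include Trav6d-7 and Trav6n-7, which are 1 sequence listed under 2 names, and with identical segments summed the higher calls over all chains numbered 11 and the lower ones 3. The difference between the chains was not tested. Replicates differed more in Trav than in Trbv segments, with median absolute log2 differences of 0.45 and 0.24 between the control libraries. Some of the higher Trbv calls were lost when V segments were rescaled within each chain, as given below.

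The calls were refitted with each library left out, which leaves a single library in its group. Such a fit has less power for any gene, so a lost call is by itself no trait of the segment. Each of the 15 missed an unadjusted p of 0.05 in limma when at least 1 library was left out, and none changed direction. Without control replicate 1 the p was 0.0550 for Trbv30, 0.0967 for Trbv3, 0.136 for Trbv17, 0.120 for Trbv24, 0.153 for Trav8n-2, 0.0818 for Trav4-2 and 0.258 for Trav14-1. Without control replicate 2 it was 0.0618 for Trbv4, 0.0647 for Trbv5, 0.0738 for Trav7-1, 0.106 for Trav6d-7 and its copy Trav6n-7, 0.0935 for Trav8n-2 and 0.194 for Trav4-2.

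Calls were lost in the same way when a KO library was left out. Without KO replicate 1 the p was 0.0615 for Trbv30, 0.0906 for Trbv3, 0.127 for Trbv17, 0.0624 for Trbv24, 0.0918 for Trbv4, 0.0530 for Trbv5, 0.116 for Trav7-1, 0.120 for Trav16d-dv11, 0.213 for Trav4-2 and 0.120 for Trav14-1. Without KO replicate 2 it was 0.0580 for Tcrg-C1, 0.0621 for Trav13-2, 0.128 for Trbv3, 0.156 for Trbv24, 0.0771 for Trbv5, 0.0613 for Trav7-1, 0.133 for Trav6d-7 and Trav6n-7, 0.222 for Trav8n-2 and 0.223 for Trav14-1. The count of lower calls also changed with the library left out, and the share of all genes called in those fits is not given.

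**Figure D2:**
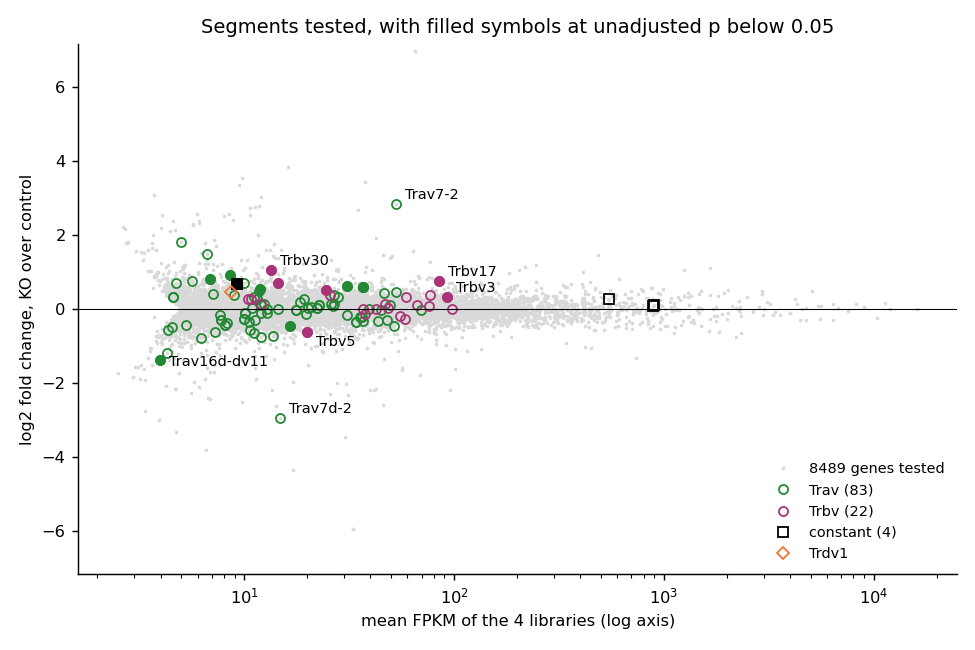
Log2 fold change, KO over control, against mean FPKM of the 4 libraries (log axis), with all genes tested in grey and the receptor segments by chain; filled symbols passed an unadjusted p below 0.05. Most segments sit within the grey cloud, and Trav7-2 and Trav7d-2, which share a sequence, lie on opposite sides of 0 at 2.84 and -2.95.

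The Trbv segments are few, and no Trbv transcript is the same as another or held whole in it. All 22 Trbv segments annotated as genes were above 0 in some library, and 21 passed the filter. Trbv15 was the most used, at 90.3, 105.0, 93.7 and 101.1 FPKM, with a log2 fold change of 0.00 (SE 0.13, unadjusted p = 0.996, adjusted p = 0.999). The 5 highest segments, Trbv15, Trbv3, Trbv17, Trbv12-2 and Trbv13-2, made up 42.1% of all Trbv FPKM on average, which is a share of length-scaled levels and not of cells.

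Among these, Trbv3 was at 78.4, 86.3, 101.2 and 104.8 FPKM. Each KO library was above each control (log2 fold change 0.32, SE 0.11, unadjusted p = 0.0320, adjusted p = 0.306). Trbv17 was at 52.2, 72.9, 126.9 and 87.0 FPKM, with KO 1 far above the rest and groups that did not overlap (0.76, SE 0.24, unadjusted p = 0.0203, adjusted p = 0.278). Its share of all Trbv FPKM went from 5.81% and 7.28% in control to 11.1% and 8.60% in KO. That difference of 3.30 percentage points in the means was the largest of any Trbv segment, and without KO replicate 1 the log2 fold change of Trbv17 was 0.49, where the unadjusted limma p was 0.127.

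The other high segments overlapped between the groups. Trbv12-2 was at 83.5, 64.4, 81.2 and 74.8 FPKM (log2 fold change 0.09, SE 0.16, unadjusted p = 0.600, adjusted p = 0.847). Trbv13-2 was at 57.4, 75.2, 100.1 and 73.5 FPKM (0.38, SE 0.20, unadjusted p = 0.113, adjusted p = 0.458), and Trbv31, which lies in inverted orientation behind the constant segments, was at 69.0, 58.9, 82.0 and 57.6 (0.11, SE 0.20, unadjusted p = 0.600, adjusted p = 0.847). Control 2 and KO 2 were alike in both.

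The remaining Trbv calls were at lower levels. Trbv30 had the smallest p of any member: 6.79, 9.99, 21.61 and 15.19 FPKM, with all KO values above all control values (log2 fold change 1.05, SE 0.25, unadjusted p = 0.00670, adjusted p = 0.203). Trbv4 was at 21.2, 18.6, 30.5 and 27.4 FPKM, also without overlap (0.52, SE 0.14, unadjusted p = 0.0105, adjusted p = 0.229). When the V segments were rescaled to the same total within each chain, 3 of the higher Trbv segments were no longer called: the unadjusted limma p was 0.308 for Trbv3, 0.0690 for Trbv4 and 0.0576 for Trbv24. The close neighbour of Trbv4 on the chromosome, Trbv5, was the only Trbv segment called lower.

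Trbv5 was at 21.6 and 27.3 FPKM in control and 15.96 and 15.11 in KO (log2 fold change -0.61, SE 0.16, unadjusted p = 0.00996, adjusted p = 0.227). The groups did not overlap. Trbv24, the pseudogene with the in-frame TAG printed above, was at 8.78, 13.21, 16.47 and 19.72 FPKM (0.69, SE 0.22, unadjusted p = 0.0233, adjusted p = 0.285). It was the only 1 of 13 Trbv pseudogenes to pass the filter, and 10 of the 13 were listed at 0 in all libraries.

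**Figure D3:**
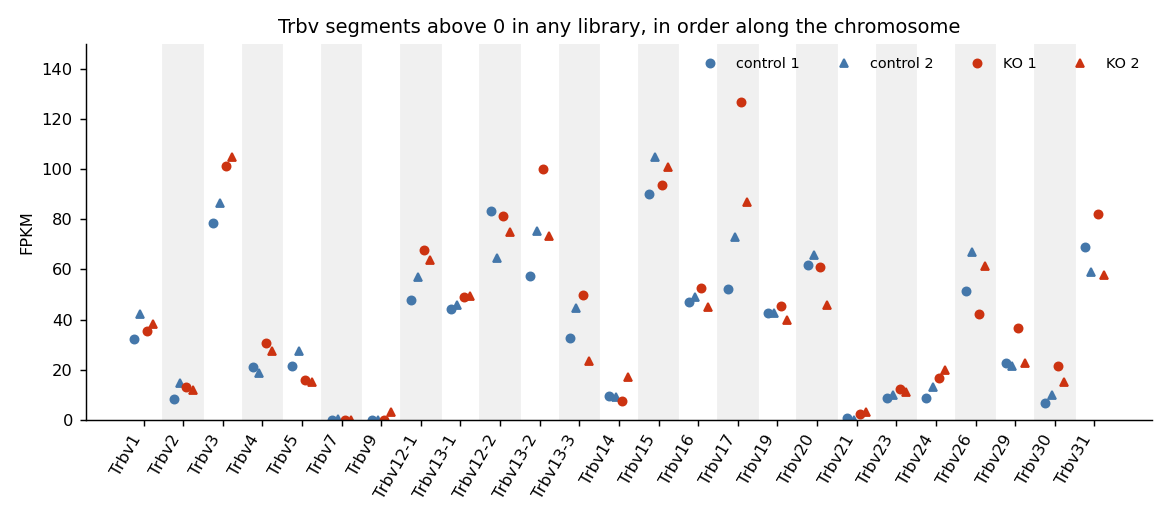
FPKM of the 25 Trbv segments above 0 in any library, ordered along chromosome 6, with control in blue, KO in red, circles for replicate 1 and triangles for replicate 2. Trbv3, Trbv4, Trbv17, Trbv24 and Trbv30 have both red symbols above both blue ones, as do some segments that were not called, and Trbv5 has both below.

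The rank of Trbv usage was much the same in every library. Across the 22 segments above 0 in all 4 libraries, log2 shares correlated at r = 0.97 between the control libraries and r = 0.92 between the KO libraries, and at 0.91 to 0.92 between a control and a KO library. These correlations are across segments, which share the libraries and the annotation, and are a description only.

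The alpha V segments are harder to read, because much of the mouse locus is repeated. Segments whose name carries d (39 members) or n (34 members) are copies of those with no such letter (55 members). A script compared the annotated transcripts and found 21 pairs, 42 segments in all, in which 1 transcript was the same as the other or held it whole. In all 17 pairs of equal length the FPKM of the partners was identical in every library, and 15 of these pairs were above 0. This is what an even division of shared reads gives. A called segment in such a pair therefore counts once, not as 2 findings.

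In 2 of the 4 pairs of unequal length the level moved from partner to partner between libraries, and in the other 2 it stayed mostly on Trav11d and on Trav15d-1-dv6d-1. Trav7-2 and Trav7d-2 differ only in the last base of the longer one. The 3′ ends are shown from the same position of the alignment, with TGTGC and the extra base in capitals, on the plus strand of chromosome 14 at chr14:53391114-53391142 and chr14:52684443-52684472.
Trav7-2: actctgctctctacctcTGTGCagcaagc
Trav7d-2: actctgctctctacctcTGTGCagcaagcA

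Trav7-2 was at 82.6, 0, 58.1 and 71.5 FPKM, and Trav7d-2 at 0, 59.1, 0 and 0. The listed level was thus all on the d copy in control 2 and all on the copy without a letter in the other 3 libraries. Which copy the cells used cannot be read from transcripts this alike. Read separately, the fold changes were 2.84 (SE 1.90, unadjusted p = 0.188, adjusted p = 0.540) and -2.95 (SE 1.83, unadjusted p = 0.160, adjusted p = 0.513), the largest in each direction among the members. The sum of the 2 was 82.6, 59.1, 58.1 and 71.5 FPKM, with overlapping groups and a log2 fold change of -0.11 (SE 0.20, unadjusted p = 0.585, adjusted p = 0.838). Trav12n-3, whose transcript is that of Trav12d-3 with 6 more bases at the 5′ end, was at 40.8, 0, 0 and 14.4 FPKM, while Trav12d-3 was at 35.8, 39.3, 77.2 and 33.7.

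**Figure D4:**
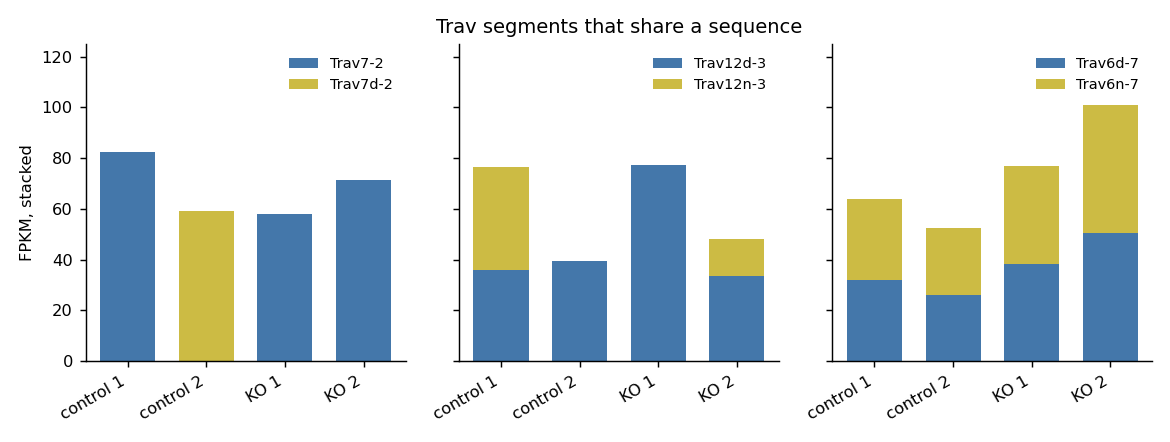
FPKM of 3 pairs of Trav segments that share a transcript sequence, stacked for each library. Trav7-2 and Trav7d-2 replace each other in control 2, Trav12n-3 is at 0 in control 2 and KO 1, and Trav6d-7 and Trav6n-7 are listed at the same value in each library.

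Counted name by name, the most used Trav segments did not pass the test. Trav7-4, the highest by mean, was at 59.4, 81.9, 72.8 and 63.2 FPKM (log2 fold change -0.04, SE 0.18, unadjusted p = 0.839, adjusted p = 0.951). Trav14n-3 was at 51.8, 37.5, 71.0 and 52.5 FPKM (0.46, SE 0.22, unadjusted p = 0.0790, adjusted p = 0.411), where both KO libraries lay above both controls. Trav4-4-dv10, a segment that can serve the alpha or the delta chain, was at 49.1, 46.3, 55.1 and 48.3 FPKM (0.11, SE 0.13, unadjusted p = 0.417, adjusted p = 0.737).

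Trav6-7-dv9, another segment of both chains, was at 56.1 and 49.4 FPKM in control and 38.1 and 47.9 in KO (-0.29, SE 0.16, unadjusted p = 0.111, adjusted p = 0.457). Trav3-3 was at 80.8, 41.1, 34.9 and 50.7 FPKM, with control 1 apart from the other 3 libraries (-0.45, SE 0.34, unadjusted p = 0.243, adjusted p = 0.596). Usage was thinly spread: on average no Trav segment counted under its own name held more than 4.22% of all Trav FPKM. With identical sequences summed the largest share was 4.43%, that of Trav6d-7 with Trav6n-7, against 9.68% for the top Trbv segment.

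Name by name, the Trav calls were at modest levels. The highest was Trav6d-7, listed together with its identical copy Trav6n-7 at 31.9, 26.2, 38.5 and 50.4 FPKM each (log2 fold change 0.59, SE 0.18, unadjusted p = 0.0184, adjusted p = 0.273). Summed, the pair was at 63.8, 52.4, 77.0 and 100.8 FPKM and had the largest mean share of any Trav sequence, 3.52% in control and 5.34% in KO. Trav7-1 was at 28.4, 20.4, 40.0 and 35.4 FPKM (0.62, SE 0.19, unadjusted p = 0.0170, adjusted p = 0.267).

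Trav13-2 was at 4.77, 4.56, 7.76 and 10.44 FPKM (0.82, SE 0.24, unadjusted p = 0.0147, adjusted p = 0.253), the lowest p of the alpha segments. Also called higher were Trav8n-2, at 9.11 and 9.83 FPKM in control and 12.12 and 16.68 in KO, and Trav4-2, at 6.37 and 4.48 against 15.66 and 7.76. In each of these the groups did not overlap, though KO 2 was close to control 1 for Trav4-2.

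Only Trav16d-dv11 and Trav14-1 were called lower among Trav segments. Trav16d-dv11 was at 3.84, 8.57, 0.99 and 2.41 FPKM (log2 fold change -1.39, SE 0.51, unadjusted p = 0.0359, adjusted p = 0.318), all low levels. Trav14-1 was at 22.5, 16.5, 14.4 and 13.0 FPKM (-0.46, SE 0.19, unadjusted p = 0.0492, adjusted p = 0.348). The Trav14-1 call was lost under 7 of the 12 alternatives that left out no library.

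Whole Trav families showed no call. When segments of 1 family were added together before the fit, 0 of 18 Trav families tested passed an unadjusted p below 0.05 in limma (0 adjusted), and the smallest p was 0.0822. The largest family by level, Trav7 with 13 members, summed to 282.9, 292.7, 303.1 and 307.5 FPKM (log2 fold change 0.09, SE 0.10, unadjusted p = 0.418, adjusted p = 0.736). Trav6, with 15 members, summed to 295.6, 280.1, 242.3 and 354.5 FPKM and its groups overlapped. Of 19 Trbv families tested, 5 were called higher and 1 lower in limma (smallest adjusted p = 0.196), each a single segment already described. Only 2 of 31 Trbv families have several members, against 14 of 23 Trav families, so the chains are not compared alike here. The share of all genes called in this fit is not given.

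Replicates differed more in Trav segments than in other genes. The median absolute log2 difference between the control libraries was 0.45 over the 83 Trav segments tested, 0.24 over the 22 Trbv segments and 0.20 over all genes tested. Between the KO libraries it was 0.43, 0.20 and 0.17. It stayed at 0.44 and 0.43 with identical sequences summed, and came to 0.26 and 0.23 with families summed. Among genes tested with a mean no higher than that of the highest V segment it was 0.21 and 0.18.

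Along the locus the Trav segments run for 1793 kb before Trac at their farthest and 243 kb at their nearest. Joining proceeds in developing thymocytes from V segments near the J segments to those farther away. With the locus cut in 3 parts of equal length, the 42 segments nearest Trac held 47.9%, 48.7%, 45.7% and 43.7% of all Trav FPKM. Both KO libraries were below both controls, at a difference of -3.62 percentage points in the means (exact permutation p = 0.333, the smallest possible). The middle part held 36.2%, 30.5%, 35.4% and 37.0% and the farthest part 15.9%, 20.8%, 19.0% and 19.3%, with overlapping groups as listed. In control 2 the farthest part includes the 59.1 FPKM of Trav7d-2, whose partner Trav7-2 lies in the middle part. Most of the 21 pairs that share a sequence lie in different parts in this way, among them Trav12d-3 and Trav12n-3, and Trav6d-6 and Trav6-6. The shares of the parts therefore depend on how shared reads were divided between partners. The parts were not compared with such pairs placed together. Across the 83 segments tested the log2 fold change and the distance from Trac were nearly unrelated, at r = 0.06 and rho = 0.09 over segments that share libraries and, in part, sequence.

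Each copy of the locus was listed with a like share in the 4 libraries. Partners named with d and n that have identical transcripts of equal length were listed at the same value, so the shares cannot tell such partners apart. Segments named with d held 22.1%, 26.4%, 23.2% and 22.5% of Trav FPKM, where control 2 includes the 59.1 FPKM of Trav7d-2. Segments named with n held 19.8%, 18.6%, 19.9% and 21.1%, and those without a letter 58.1%, 55.0%, 56.9% and 56.5%.

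**Figure D5:**
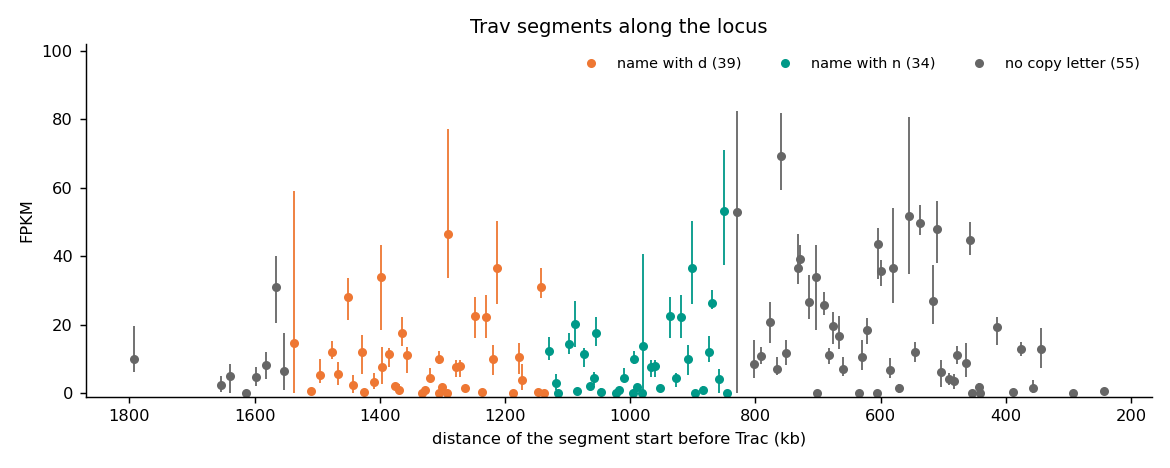
Mean FPKM of each of the 128 Trav segments (points), with a line from the lowest to the highest library, against the distance of its start before Trac in kb, coloured by the copy letter in its name. The long lines at 0 belong to segments that share a sequence with a copy, among them Trav7-2 and Trav7d-2.

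Segments of invariant receptors were examined as a check for other T cells. Trav1, used by MAIT cells, was at 7.38, 6.18, 6.58 and 19.80 FPKM. KO 2 stood far above the other 3 libraries, and the difference was not called (log2 fold change 0.69, SE 0.47, unadjusted p = 0.192, adjusted p = 0.546). Trav11, used by NKT cells, was listed at 0 in all libraries, while Trav11d, whose transcript Trav11 holds whole with 1 more base, was at 6.33, 8.18, 13.57 and 2.74 (-0.15, SE 0.62, unadjusted p = 0.816, adjusted p = 0.944). Zbtb16, the transcription factor shared by these lineages, was at 0.20 or less and Klrb1c at 0.59 or less in every library. For CD8 T cells, Cd8a was at 0.35 or less and Cd8b1 at 2.08 to 2.96 FPKM.

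The partners of the receptor were checked in a list of 11 genes, of which 5 were tested. None of the 5 passed an unadjusted p below 0.05 in limma (0 adjusted). Cd3e was at 149.0, 186.6, 172.2 and 161.5 FPKM and Cd247, the zeta chain, at 231.2, 255.2, 282.4 and 257.0. Cd3g, the gamma chain of CD3, was at 604.8, 594.7, 634.9 and 646.8 FPKM, without overlap and not called (log2 fold change 0.10, SE 0.09, unadjusted p = 0.343, adjusted p = 0.679). Cd3d, the delta chain of CD3, was at 214.2, 214.2, 244.0 and 252.0 FPKM, again without overlap (0.21, SE 0.10, unadjusted p = 0.0792, adjusted p = 0.411).

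Cd4, the coreceptor used in the sort, was at 162.5, 220.4, 183.4 and 130.8 FPKM and its groups overlapped (-0.29, SE 0.22, unadjusted p = 0.237, adjusted p = 0.593). Genes that act while receptors are being built in the thymus were at or near 0: Rag2 and Dntt were listed at 0 in all libraries, and Rag1, which with Rag2 cuts the DNA, and Ptcra, the stand-in alpha chain of early thymocytes, were at 0.17 or less.

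Pseudogenes and genes differed in level on both chains. Of 20 Trav pseudogenes 14 were listed at 0 in all libraries, against 4 of 108 Trav genes. The median of the mean FPKM was 0 for pseudogenes of both chains, 10.6 for Trav genes and 44.8 for Trbv genes. The highest pseudogene was Trbv24, at a mean of 14.5 FPKM, and the highest Trav pseudogene was Trav13-3, at 4.60, 6.01, 2.40 and 4.26.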

How the data were processed

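Total RNA of sorted LI Treg cells was extracted, selected with oligo(dT) beads and sequenced as 150 bp pairs in 2 control and 2 KO libraries. The authors mapped reads to GRCm38 with STAR v2.5, quantified genes with RSEM v1.2 at default settings on a GENCODE annotation, and deposited FPKM for 53379 genes in 4 columns. At the 5000 highest ranks the 4 columns differ by at most 0.173% of their mean, a step the methods do not name. Such columns keep no depth, so depth is unknown, no counting interval was computed and no count test was run. RSEM divides reads that match several segments.

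Names, positions and transcripts came from GENCODE M21 on the same build, where 53274 identifiers and all 184 members were found. The values log2(FPKM + 1) were modelled with limma 3.58.1 (R 4.3.3), with no covariate and an empirical Bayes trend, over genes of all types whose mean FPKM exceeded 5 in control or KO, since the study's protein-coding criterion removes every receptor segment. Adjusted p-values are Benjamini-Hochberg values over all of these genes. Fold changes of low genes are understated by the added 1. Single values were compared by exact two-sided permutation tests, whose smallest p is 0.333. The limma p-values set each difference against the spread between 2 pools of mice a group, moderated by the spread of other genes of like level. Trav replicates differed more than those of other genes, and what this moderation does to the SE of Trav segments was not tested. On simulated data (8489 genes, 200 changed by a log2 fold change of 1) the fit recovered 98.0% of the changed genes at an adjusted p below 0.05. The simulated spread depended on the level alone, unlike that of the real genes. The simulation therefore checks the fit and does not give the power for receptor segments. Tables and figures used Python 3.11.15, numpy 2.4.6, pandas 2.3.3 and matplotlib 3.10.9.

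The named segments are all constant segments, the 6 highest Trav and 6 highest Trbv, the 2 highest gamma and 2 highest delta V segments, all members at an unadjusted p below 0.05, and Trav1, Trav11 and Trav11d. Trav7d-2, Trav12d-3, Trav12n-3, Trav6n-7, Trav13-3 and the Trav7 and Trav6 families are named besides, with their values known. The members and lists were chosen with earlier results of these data known. Alternatives were other pseudocounts, filters and scalings, a fit without trend, blocks on the replicate number, segments summed by family or by sequence, rescaling within each chain, and each library left out.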

Additional observations from a re-analysis of the deposited data

How the results depend on the processing

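The depth of the libraries is unknown and each group holds 2 pools, so a value at or near 0 FPKM carries no stated error. Under 12 alternatives other than leaving out a library the higher calls numbered 10 to 17 except with segments summed by family (6), and 0 members passed an adjusted p below 0.05 under any of the 16 alternatives. The lower calls, 3 as reported, came to 8 with a mean FPKM above 1, to 5 with each library rescaled to a total of 1000000, to 1 with families summed and to 7 with the crossed replicate block. Leaving out 1 library, which leaves a single library in its group, changed the counts as well. The share of all genes called under each alternative is not given, so these counts have no background beside them. Of the CD3 and coreceptor list, Cd3d passed with no filter on low FPKM and Cd4 with the crossed block, 1 gene each. The cause of these changes was not tested.

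Same-numbered control and KO libraries did not deviate together (r = -0.13 over 8489 genes), and the labels do not say that a number marks a shared litter. The replicate block gave 13 higher and 4 lower calls. The crossed pairing, control 1 with KO 2 and the reverse, gave 17 and 7; it and the summing of identical segments were added once the data had been seen. For the summed levels and effective numbers the block cannot change the differences, since each replicate number holds 1 control and 1 KO library.

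With families summed, the log2 fold changes that turned sign were Trav7-4 (0.085), Trav14n-3 (-0.041), Trav6-7-dv9 (0.027), Trav13-2 (-0.036) and Trav16d-dv11 (0.0030), each then the value of its whole family. With V segments rescaled within each chain Trbv12-2 came to -0.094 and Trbv31 to -0.072, and Trdv1 passed at 0.73 (limma, unadjusted p = 0.0102). With identical segments summed Trav7-2 came to -0.11.

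Leaving out 1 library turned the sign of uncalled genes only, over ranges of -0.27 to 0.19 for Trav7-4, -0.35 to 6.03 for Trav7-2, -0.93 to 0.032 for Trav3-3, -0.033 to 1.42 for Trav1, -1.13 to 0.83 for Trav11d, -0.11 to 0.11 for Trbv15, -0.10 to 0.27 for Trbv12-2, -0.14 to 0.36 for Trbv31, -0.036 to 0.24 for Trbc2, -0.16 to 0.16 for Cd3e and -0.037 to 0.19 for Tnfrsf18. The difference in log2 of the summed level ran from -0.062 to 0.089 for Trav, from 0.09 to 0.27 for Trbv and from -0.65 to 0.029 for Trdv, which came to 0.51 with Trdv1 alone, the only Trdv segment with a mean FPKM above 5. The difference in the effective number ran from -1.08 to 1.15 for Trav and from -0.051 to 0.44 for Trbv, which came to -0.032 with members above a mean FPKM of 5. No log2 difference was computed for the gamma-chain V sum, which was listed at 0 in control 2.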

Other observations

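The J segments, which join in every rearranged chain, and the D segments, which join in beta and delta chains, left no trace in the table. All 84 genes of these types were listed at 0 in all 4 libraries. They are 11 to 72 bases long in the annotation, shorter than the 150 bp reads, so a value of 0 is no sign that a segment was unused. The V and constant segments on either side of them in the transcript were well above 0. Which J segments were used in control and KO cells could not be read from these values.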
